A study of Mus musculus with 30 samples.

Results

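The comparison described here set the 3 heart arrays taken after 7 days of angiotensin II infusion against the 3 heart arrays taken after 3 days, 6 of the 30 arrays of the series. The labels assign the 6 arrays to their days, while the comparison and the gene lists were chosen with earlier results of these data known. The animals were male C57BL/6 mice 8 to 10 weeks old, and each heart gave total RNA for an Affymetrix Mouse Genome 430 2.0 array, which measures each transcript with a set of short probes. Angiotensin II, a peptide hormone and vasoconstrictor, was delivered by an osmotic pump at 1500 ng/kg/min for 1, 3 or 7 days, so both groups compared were infused mice and differed in the length of infusion. The other 6 heart arrays, 3 without angiotensin II (day 0) and 3 after 1 day, entered the model for the spread between arrays and are quoted as reference levels. The labels do not say whether day 0 mice carried a pump, nor which organs came from one mouse. They call the arrays biological replicates, and the p-values below measure the spread between these samples.

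Angiotensin II acts on the heart through its type 1 receptor and through the pressure load it imposes. The hypertrophic heart is known for a return of fetal muscle genes, for recruitment of leukocytes, and for fibroblasts that enter the cell cycle, fold and secrete large amounts of matrix protein and lay down collagen. Dividing cells switch genes on in order, from the licensing of replication origins and DNA synthesis to the cyclins, spindle and proteolysis of mitosis, and interferon-responsive genes encode antiviral effectors, GTPases and the machinery that presents peptides on MHC class I molecules.

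Array medians over all probe sets lay between 36.0 and 37.7 intensity units in heart. The heart label held against muscle markers: Myh6, Tnni3, Myl2, Actc1 and Tnnt2 had intensities of at least 12629 on all 12 heart arrays and at most 110.3 on any kidney or brain array. One array stood apart. Day 3 replicate 1 lay nearer to day 0 than the other day 3 arrays for several gene lists, and its atrial markers were low. Sarcolipin (Sln), an atrial regulator of the calcium pump, measured 144, 3025 and 2787 at day 3 and 2187, 3106 and 4157 at day 7. The atrial light chain Myl4 measured 469.9, 5520.5 and 6268 at day 3 and 3768, 5659.6 and 6174 at day 7. Day 3 replicate 1 was the lowest array in both genes, and the 10 atrial markers together had a median of -1.26 on that array relative to day 0 (log2), against 0.16 and 0.03 on the other day 3 arrays and -0.29 to 0.13 at day 7. Results are therefore given with all arrays, and also without that array where a named gene then passed the threshold or where the value of a named gene or of one of the 4 main lists moved by over 1.5 times.

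No gene passed the threshold of an adjusted p of 0.05 among 13966 genes tested (0% called, limma with Benjamini-Hochberg adjustment). The smallest adjusted p was 0.24, for Pdia6. At an unadjusted p under 0.05 limma listed 986 genes, 520 of them lower at day 7 (3.72% of tested genes) and 466 higher (3.34%). The day 7 arrays all lay below the day 3 arrays in 1010 genes (7.23%) and above them in 912 (6.53%). The median difference over all tested genes was -0.0067 on the log2(intensity + 16) scale, and 51.7% of genes were lower. With day 3 replicate 1 left out, 65 genes passed the adjusted threshold (0.465%), of which 62 were lower at day 7 (0.444%) and 3 were higher (0.0215%). Leaving out day 3 replicate 2 or replicate 3 gave 0 genes (639 and 1226 at an unadjusted p under 0.05). Day 3 replicate 1 was singled out partly by its levels in the gene lists described here, so leaving it out widens the day 3 excess and narrows the day 3 spread of those genes, and the p-values without it are descriptions and no independent support. In that reduced comparison 32 of the 62 belonged to the cell division list, 6 to secretory folding and 3 to extracellular matrix. Differences below are day 7 minus day 3 in log2(intensity + 16) units ± the standard error of the difference, with limma's adjusted p over the tested genes; counts of members use the unadjusted p. The added 16 shrinks the fold of dim genes. None passed the adjusted threshold over all arrays, so words such as lower and higher describe these arrays.

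The largest differences downward were in Tnc, Sprr1a and Timp1. Tenascin C (Tnc), a matrix glycoprotein made at sites of injury, had intensities of 279, 1359.5 and 1411 at day 3 and 71.7, 97 and 109 at day 7, after 49.4, 38.2 and 74.2 at day 0. All 3 day 7 arrays lay below all 3 day 3 arrays and near the day 0 range, and the difference was -2.96 ± 0.65 (adjusted p = 0.6). A dimmer probe set of Tnc gave -0.12, so the probe sets of this gene disagreed. Leaving out day 3 replicate 1 gave -3.71 (limma adjusted p = 0.016).

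Sprr1a, a small proline-rich protein induced in stressed cardiomyocytes, measured 74.8, 819 and 921 at day 3 and 44.9, 65.1 and 48.4 at day 7. Its day 3 level came from replicates 2 and 3, which stood above replicate 1 by an order of magnitude, and no day 7 array reached even replicate 1 (difference -2.60 ± 0.77, adjusted p = 0.64; without day 3 replicate 1 -3.70, limma adjusted p = 0.012). Timp1, an inhibitor of matrix metalloproteinases, had the same order of day 3 arrays, at 1284, 2438 and 3487 at day 3 and 426, 669 and 869.6 at day 7 (difference -1.79 ± 0.51, adjusted p = 0.6). At day 7 Timp1 was still 1.499 above day 0. Aldh1a2, which makes retinoic acid and marks epicardial cells, measured 131, 245 and 255 at day 3 and 56.3, 76.97 and 73.1 at day 7 (difference -1.37 ± 0.35). The calcium-binding protein S100a4 measured 550.1, 840.3 and 1465 at day 3 and 369, 408 and 387 at day 7, with the 3 day 7 arrays close together (difference -1.15 ± 0.39). Nmrk2, a nicotinamide riboside kinase of stressed muscle, measured 202, 524 and 1033 at day 3 and 196, 159.8 and 198 at day 7 (difference -1.32 ± 0.50). In Nmrk2 the gap between day 7 and day 3 replicate 1 was small, and the excess of day 3 came from replicates 2 and 3.

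Among further genes with large differences downward, the order of day 3 arrays was different in interleukin 6 and Socs3. Interleukin 6 (Il6), the inflammatory cytokine, measured 114, 23.7 and 83.1 at day 3 and 18.4, 11.3 and 21.7 at day 7, and its highest day 3 array was replicate 1 (difference -1.28 ± 0.56, adjusted p = 0.7). Its feedback inhibitor Socs3 was likewise highest in day 3 replicate 1, at 695, 413 and 437 at day 3 and 174, 149.6 and 236 at day 7 (difference -1.37 ± 0.42, adjusted p = 0.65), and 2 further probe sets gave -1.01 and -0.998. Gadd45g, a growth arrest and DNA damage gene, measured 366, 386 and 465 at day 3 and 146, 156 and 173 at day 7, with both groups tight and no overlap (difference -1.27 ± 0.30, adjusted p = 0.6). The unnamed transcript 2210407C18Rik measured 569, 837 and 763 at day 3 and 149.9, 259 and 243 at day 7 (difference -1.68 ± 0.36). The day 7 minus day 0 difference was 0.48 for Il6, 0.23 for Socs3, -0.21 for Gadd45g and -0.64 for 2210407C18Rik.

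The largest difference upward was in Cxcl13, a chemokine that attracts B cells. It measured 78.3, 107 and 82.4 at day 0, 16.97, 35.4 and 41.3 at day 3 and 116, 87.04 and 378 at day 7, with all day 7 arrays above all day 3 arrays and replicate 3 the highest (difference 1.93 ± 0.40, adjusted p = 0.6). The day 3 arrays lay below day 0 by -1.18 and the day 7 arrays above it by 0.74. A dimmer probe set gave 1.24. Cxcl9, a chemokine for T cells, measured 58.98, 93.9 and 99.8 at day 3 and 150.1, 156 and 150.0 at day 7 (difference 0.77 ± 0.28). The methyltransferase Inmt measured 401, 402 and 277 at day 3 and 405, 893 and 1086 at day 7, and its day 7 replicate 1 exceeded the day 3 arrays by a small margin only (difference 1.02 ± 0.37). Cpxm2, a secreted carboxypeptidase-like protein, measured 107, 83.1 and 169 at day 3 and 313, 209 and 222 at day 7 (difference 0.99 ± 0.23, adjusted p = 0.6), but a dimmer probe set gave 0.18. Depp1, a target of FOXO transcription factors, had the smallest p among the 15 largest differences upward that met the naming rule, with intensities of 899.6, 771 and 939 at day 3 and 1100.2, 1578 and 1467 at day 7 (difference 0.65 ± 0.13, adjusted p = 0.6, a second probe set 0.67). Of these 15, 6 belong to the interferon or chemokine lists described below (Cmpk2, Gbp7, Tap1, Rsad2, Cxcl13 and Cxcl9). The interferon list held 70 and the chemokine list 30 of the 13966 tested genes.

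**Figure D1:**
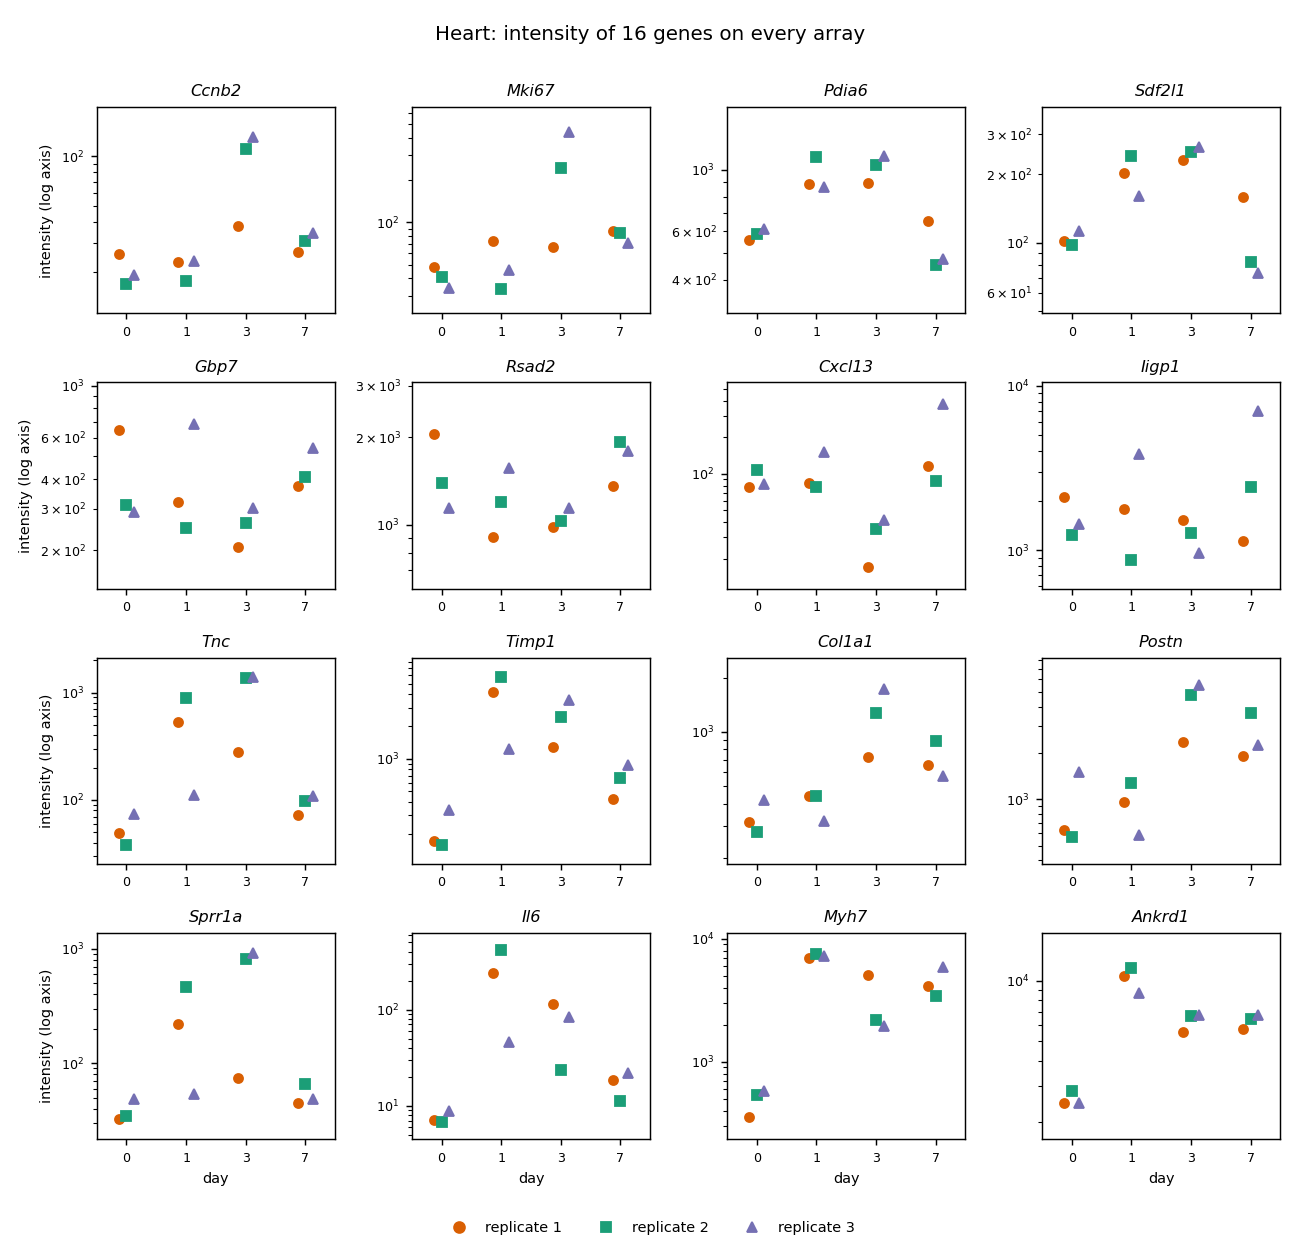
Intensity (log axis, array units) of 16 heart genes at days 0, 1, 3 and 7, with 1 point for each array and the 3 replicates in different colours and shapes. Ccnb2, Pdia6 and Tnc had all day 7 arrays below all day 3 arrays, Cxcl13, Gbp7 and Rsad2 had them above, and in Mki67, Tnc and Sprr1a day 3 replicate 1 lay well under the other day 3 arrays.

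Genes of the cell cycle were lower at day 7. Of 131 list members on the array 105 were tested, and 93 of them had a lower mean at day 7, with a median difference of -0.27 against -0.0067 over all genes. An unadjusted p under 0.05 was reached by 47 members, all lower (44.8%, against 3.72% of all genes), and 20 had all day 7 arrays below all day 3 arrays (19.0%, against 7.23%). On single arrays the median of the list above its day 0 mean was 0.09, 0.34 and 0.51 at day 3 and 0.02, 0.07 and 0.10 at day 7. The lowest day 3 array, replicate 1, lay just under the highest day 7 array, so the groups overlapped at that array alone. Without it the median difference was -0.40 and 32 of the 105 members were lower past the adjusted threshold (against 0.444% of all genes). Since it was the lowest day 3 array of this list, leaving it out widens the difference. Without day 3 replicate 3 the median was -0.20, and 0 genes passed. In whole-tissue RNA, fewer dividing cells and less of these transcripts in each cell cannot be told apart.

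The promoters of such genes are known to carry a CHR element (TTTGAA) for complexes that repress or activate mitotic genes, and CCAAT boxes for NF-Y. Promoter windows of 250 bases before to 50 bases after the start site were matched in RefSeq (GRCm38.p6) for 90 of the 105 tested members. With both strands searched, TTTGAA was in 42 (46.7%, against 20.2% of all 27025 genes with a promoter). CCAAT was in 60 (66.7%, against 41.1%) and both were in 34 (37.8%, against 7.97%). The 100 bases before the start site are shown for 3 members that were lower at day 7, since they hold both motifs close together, with capitals marking TTTGAA or its reverse complement and CCAAT or its reverse complement. Cdk1 was chosen after its values were seen. Ube2c lies at chr2:164769829-164769928 on the plus strand, Cdk1 at chr10:69352913-69353012 on the minus strand and Asf1b at chr8:83955594-83955693 on the plus strand.
Ube2c: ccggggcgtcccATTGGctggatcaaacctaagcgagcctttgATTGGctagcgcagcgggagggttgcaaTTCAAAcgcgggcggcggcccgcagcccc
Cdk1: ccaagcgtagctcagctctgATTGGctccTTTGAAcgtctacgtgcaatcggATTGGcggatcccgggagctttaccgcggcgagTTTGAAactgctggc
Asf1b: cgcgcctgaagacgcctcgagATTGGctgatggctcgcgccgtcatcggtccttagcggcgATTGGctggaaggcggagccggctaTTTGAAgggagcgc
Each holds CCAAT on the reverse strand upstream of its TTTGAA or TTCAAA. A match describes the letters of the window and shows no bound factor.

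By role in the cycle, the medians ran from -0.21 for replication licensing to -0.47 for spindle genes. Of the 16 origin licensing and firing genes 12 were lower, 5 of the 16 at p under 0.05 (31.2%, against 3.72% of all genes). Gins2, a subunit of the replicative helicase complex, measured 82.4, 96.3 and 135 at day 3 and 68.4, 70.4 and 54.7 at day 7 (difference -0.57 ± 0.15, adjusted p = 0.6). Mcm3, of the helicase ring, measured 119, 107 and 132 at day 3 and 81.2, 94.7 and 93.9 at day 7 (difference -0.35 ± 0.10, adjusted p = 0.6). In both genes the groups did not overlap. All 15 genes of DNA synthesis and nucleotide supply were lower, with a median of -0.23. DNA ligase 1 (Lig1) had intensities of 60.95, 82.7 and 90.9 at day 3 and 60.05, 54.5 and 52.7 at day 7 and the ribonucleotide reductase subunit Rrm1 168, 227 and 295 at day 3 and 153, 158 and 153 at day 7. In both the day 3 excess over day 7 was in replicates 2 and 3, while replicate 1 lay close above the day 7 arrays (differences -0.38 ± 0.11 and -0.50 ± 0.16). Lig1 gave -0.52 without day 3 replicate 1 (limma adjusted p = 0.028).

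The 22 cyclins, kinases and regulators had a median of -0.25, with 19 lower. Of the 22, 10 were lower at p under 0.05 (45.5%, against 3.72% of all genes). Cyclin B2 (Ccnb2), which drives entry into mitosis, measured 25.9, 16.9 and 19.3 at day 0, 37.7, 111 and 131 at day 3 and 26.4, 30.7 and 34.5 at day 7. The groups did not overlap, although day 3 replicate 1 lay only just above day 7 (difference -1.11 ± 0.28, adjusted p = 0.6). Without that array the difference was -1.56 (limma adjusted p = 0.00056). The mitotic kinase Plk1 measured 55.6, 70.7 and 71 at day 3 and 45.7, 41.5 and 41.7 at day 7, again without overlap, and had the smallest p of the list (difference -0.47 ± 0.10, adjusted p = 0.6; without day 3 replicate 1 -0.56, limma adjusted p = 0.019). Aurora kinase A (Aurka) measured 34.4, 48.9 and 62.96 at day 3 and 27.04, 28.7 and 28.2 at day 7 (difference -0.53 ± 0.13, adjusted p = 0.6; without day 3 replicate 1 -0.70, limma adjusted p = 0.015). Cyclin A2 (Ccna2) overlapped, at 74.02, 154 and 294 at day 3 and 95.8, 64.5 and 65.6 at day 7, since day 7 replicate 1 exceeded day 3 replicate 1 (difference -0.90 ± 0.33; without day 3 replicate 1 -1.35, limma adjusted p = 0.031). Cdk1, the kinase that cyclin B activates, also overlapped, at 77.2, 205 and 378 at day 3 and 67.2, 77.4 and 91.5 at day 7 (difference -1.09 ± 0.36; without day 3 replicate 1 -1.65, limma adjusted p = 0.0063).

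The 28 spindle, kinetochore and motor genes had the deepest median, -0.47 (-0.73 without day 3 replicate 1), with 25 lower. Of the 28, 16 were lower at p under 0.05 (57.1%, against 3.72% of all genes). Survivin (Birc5), of the chromosomal passenger complex, measured 29.02, 144 and 208 at day 3 and 22.1, 31.1 and 25.9 at day 7. Day 3 replicate 1 fell inside the day 7 range in this gene and the other day 3 arrays far above it (difference -1.48 ± 0.43; without day 3 replicate 1 -2.17, limma adjusted p = 0.0019). Hmmr, a spindle and hyaluronan-binding protein, measured 26.2, 75.4 and 134 at day 3 and 23.7, 23.97 and 25.8 at day 7 (difference -1.04 ± 0.31; without day 3 replicate 1 -1.53, limma adjusted p = 0.0025), and its 4 other probe sets gave -0.71 to -0.049. The kinesin Kif4 measured 38.5, 49.9 and 57.4 at day 3 and 28.02, 34.8 and 29.6 at day 7, with no overlap (difference -0.46 ± 0.11, adjusted p = 0.6; without day 3 replicate 1 -0.57, limma adjusted p = 0.032). Of the 18 chromatin genes 17 were lower, with a median of -0.31 (-0.53 without day 3 replicate 1). Mki67, the proliferation antigen that coats mitotic chromosomes, measured 48.4, 40.98 and 33.9 at day 0, 66.2, 244 and 438 at day 3 and 86.3, 83.7 and 71.5 at day 7. The groups overlapped because day 3 replicate 1 lay below all day 7 arrays (difference -1.15 ± 0.44, adjusted p = 0.68; without it -1.84, limma adjusted p = 0.0074). The histone variant H2az1 measured 1463, 1709 and 2188 at day 3 and 1294, 1260.3 and 1147 at day 7 and the histone chaperone Asf1b 90.6, 135 and 140.5 at day 3 and 84.4, 83.9 and 89.9 at day 7, both without overlap (differences -0.51 ± 0.15 and -0.42 ± 0.14). Asf1b gave -0.59 without day 3 replicate 1 (limma adjusted p = 0.038).

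Of the 6 genes of proteolysis and mitotic exit 5 were lower, with a median of -0.28. The anaphase ubiquitin-conjugating enzyme Ube2c measured 58.9, 164 and 240.4 at day 3 and 40.4, 62.4 and 53.6 at day 7 (difference -1.16 ± 0.32; without day 3 replicate 1 -1.67, limma adjusted p = 0.0025). Cdc20, which activates the anaphase-promoting complex, measured 53.4, 211 and 226 at day 3 and 57.6, 63.4 and 74.97 at day 7 (difference -0.95 ± 0.35; without day 3 replicate 1 -1.53, limma adjusted p = 0.00056). Day 3 replicate 1 lay within the day 7 range in Ube2c and below it in Cdc20. Pclaf, a PCNA-associated factor outside the list, measured 95, 321 and 495 at day 3 and 87.2, 85.7 and 92.7 at day 7, with the 3 day 7 arrays close together and day 3 replicate 1 just above them (difference -1.36 ± 0.40; without day 3 replicate 1 -1.99, limma adjusted p = 0.0025). Its 2 other probe sets gave -0.38 and 0.04.

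**Figure D2:**
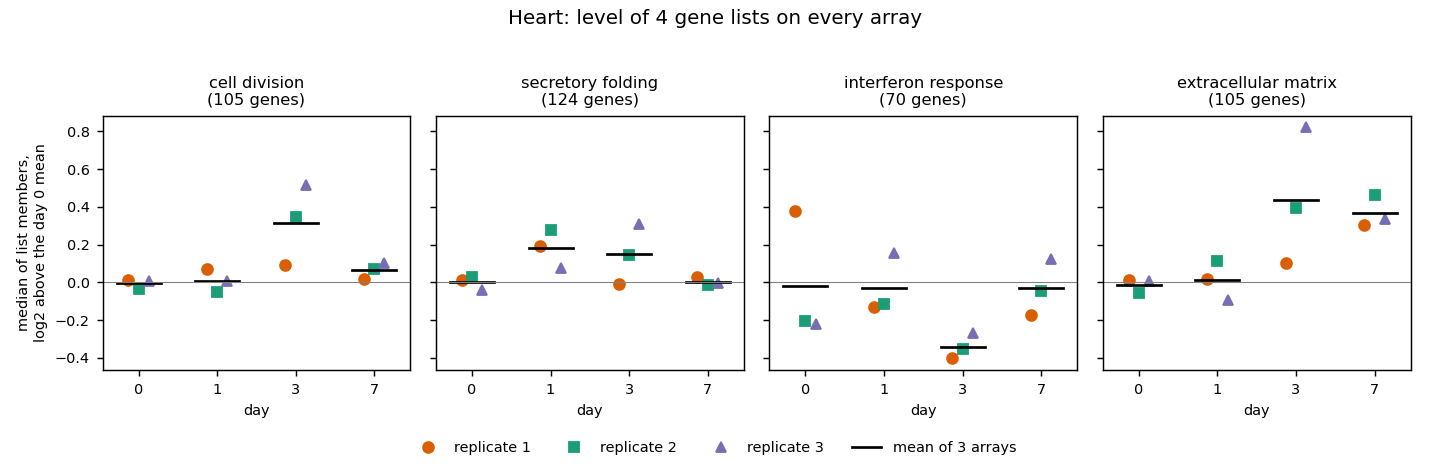
Median of the members of 4 gene lists on each heart array, in log2(intensity + 16) above the day 0 mean, by day, with points for the replicates and a black bar for the mean of 3 arrays. Cell division reached 0.51 on a day 3 array and at most 0.10 at day 7, the interferon list lay between -0.40 and -0.27 at day 3 and between -0.17 and 0.12 at day 7, and the matrix list had overlapping groups.

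Genes of folding and export in the endoplasmic reticulum (ER) were also lower at day 7. Of 124 tested members 94 were lower, with a median of -0.15. At p under 0.05 there were 29 lower members (23.4%, against 3.72% of all genes) and 1 higher (0.806%, against 3.34%). All day 7 arrays lay below all day 3 arrays in 23 (18.5%, against 7.23%). The list's median above day 0 was -0.0095 on day 3 replicate 1, 0.15 on replicate 2 and 0.31 on replicate 3, and lay between -0.01 and 0.03 at day 7. Without day 3 replicate 1 the median difference was -0.25, and 6 of the 124 members were lower past the adjusted threshold (against 0.444% of all genes). The median was -0.05 without day 3 replicate 3, so its size rested on single arrays.

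An ER stress response element (ERSE), the letters CCAAT, 9 bases of any kind and CCACG, was searched on both strands of the promoter windows. It was in 10 of the 104 members with a matched promoter (9.62%) and in 37 of all 27025 genes with a promoter (0.137%). It contains the CCAAT searched above. The stretches of 3 chaperone genes that were lower at day 7 are shown, with the element in capitals. Hsp90b1 was chosen after its values were seen. Pdia6 lies at chr12:17266450-17266549 on the plus strand, Calr at chr8:84847035-84847134 and Hsp90b1 at chr10:86705493-86705592, both on the minus strand.
Pdia6: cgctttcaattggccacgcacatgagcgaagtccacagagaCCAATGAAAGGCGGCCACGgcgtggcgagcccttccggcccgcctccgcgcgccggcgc
Calr: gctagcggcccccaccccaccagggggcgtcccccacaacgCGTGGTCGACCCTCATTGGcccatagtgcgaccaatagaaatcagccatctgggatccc
Hsp90b1: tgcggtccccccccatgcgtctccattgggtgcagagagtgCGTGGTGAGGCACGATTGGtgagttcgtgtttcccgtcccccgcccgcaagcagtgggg
The element runs forward in Pdia6 and in reverse in Calr and Hsp90b1.

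The 38 ER chaperones and disulphide-forming enzymes had the lowest median of the 4 roles, -0.22, with 34 lower. Of the 38, 17 were lower at p under 0.05 (44.7%, against 3.72% of all genes) and 11 lower without overlap (28.9%, against 7.23%). Their median was -0.34 without day 3 replicate 1. Pdia6, a protein disulphide isomerase, had the smallest p of all genes. It measured 556, 584 and 610.1 at day 0, 895, 1043 and 1119.5 at day 3 and 651, 454 and 476 at day 7. All day 3 arrays, replicate 1 included, stood above every day 0 and day 7 array, and the difference was -0.94 ± 0.14 (limma adjusted p = 0.24). Leaving out day 3 replicate 1 gave -1.03 (limma adjusted p = 0.012). A dimmer probe set of Pdia6 gave -0.051, a disagreement between probe sets of this gene.

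Sdf2l1, an ER protein of the stress-induced chaperone complex, measured 231, 251 and 263 at day 3 and 159, 81.95 and 73.1 at day 7, with day 7 replicate 1 between the day 3 arrays and the other day 7 arrays (difference -1.19 ± 0.21, adjusted p = 0.54; without day 3 replicate 1 limma adjusted p = 0.049). P4hb, the main protein disulphide isomerase and a subunit of collagen prolyl hydroxylase, measured 1855, 2292 and 2309 at day 3 and 1549, 1453 and 1505 at day 7 (difference -0.51 ± 0.12, adjusted p = 0.6; without day 3 replicate 1 -0.61, limma adjusted p = 0.048). Calreticulin (Calr), the lectin chaperone, measured 2977, 3329.5 and 3030.4 at day 3 and 2676, 1992 and 1873 at day 7, and its 2 other probe sets gave -0.65 and -0.56 beside -0.53 ± 0.12. In Calr and Sdf2l1 day 7 replicate 1 was the highest of its group. The same array lay inside the day 3 range in the heat shock protein 70 of the ER, Hspa5 (BiP), at 3282, 3640.0 and 3818 at day 3 and 3769, 2473 and 2596 at day 7, and in Hsp90b1, at 3502, 3682 and 3925 at day 3 and 3692, 2384 and 2290.2 at day 7. Those groups therefore overlapped (differences -0.30 ± 0.14 and -0.44 ± 0.15).

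Of the 32 genes of the translocon, signal peptidase and glycosylation 26 were lower, 7 at p under 0.05 and 8 without overlap, with a median of -0.18 (-0.30 without day 3 replicate 1). The oligosaccharyltransferase subunit Ddost measured 567, 672 and 741 at day 3 and 525, 425 and 438 at day 7 and its partner Dad1 2035, 2319 and 2404 at day 3 and 1603, 1859 and 1736 at day 7, without overlap in either (differences -0.50 ± 0.12 and -0.37 ± 0.10). The translocon-associated protein Ssr4 measured 2025, 2134 and 2475 at day 3 and 1571, 1756 and 1716 at day 7 (difference -0.39 ± 0.11). Its 2 other probe sets gave -0.15 and -0.032. Of the 32 genes of ER to Golgi transport 22 were lower, with a median of -0.10 (-0.23 without day 3 replicate 1) and 5 lower at p under 0.05 (15.6%, against 3.72%). Among them the cargo receptor Surf4 measured 293, 372 and 379.8 at day 3 and 289.9, 245 and 255 at day 7 (difference -0.38 ± 0.12) and the coatomer subunit Cope 1464, 1583 and 1578 at day 3 and 1324, 1299 and 1174 at day 7 (difference -0.28 ± 0.10). The 22 genes of the unfolded protein response and ER-associated degradation had a median of -0.04 (-0.09 without day 3 replicate 1), with 12 lower and 10 higher. None was lower at p under 0.05, and 1 was higher (4.55%, against 3.34% of all genes). That gene, the retrotranslocation channel protein Derl1, measured 1120.3, 1180.1 and 1288 at day 3 and 1381, 1378 and 1372 at day 7 (difference 0.20 ± 0.088), and its 3 other probe sets ran from -0.20 to 0.22. Chac1, a target of the ATF4 branch, overlapped at 139, 95.2 and 74.7 at day 3 and 96.4, 186 and 138 at day 7 (difference 0.39 ± 0.21; without day 3 replicate 1 0.59).

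Genes induced by interferon were higher at day 7. Of 70 tested members 62 had a higher mean, with a median of 0.30, 10 of them at p under 0.05 (14.3%, against 3.34% of all genes) and none lower. All day 7 arrays lay above all day 3 arrays in 25 (35.7%, against 6.53%). On single arrays the list's median above the day 0 mean was -0.40, -0.35 and -0.27 at day 3 and -0.17, -0.05 and 0.12 at day 7, so the groups did not overlap. Day 0 itself was uneven: replicate 1 stood at 0.38 and the others at -0.21 and -0.22. The day 7 level was thus within the spread of untreated hearts, and the day 3 level lay below all 3 of them. Without day 3 replicate 1 the median difference was 0.24 and no member passed the adjusted threshold. Without day 7 replicate 3 the median was 0.20.

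Such genes are known for an interferon-stimulated response element, searched here as GAAA, any 2 bases and GAAA on both strands. It was in 23 of the 55 members with a matched promoter (41.8%) and in 1079 of all 27025 genes with a promoter (3.99%). The stretches of 3 members that were higher at day 7 are shown with the element in capitals. Rsad2 lies at chr12:26456518-26456617 on the minus strand, Gbp7 at chr3:142530236-142530335 and Gbp2 at chr3:142620559-142620658, both on the plus strand.
Rsad2: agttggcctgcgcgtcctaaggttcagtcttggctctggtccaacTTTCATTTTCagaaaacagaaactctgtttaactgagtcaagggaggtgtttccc
Gbp7: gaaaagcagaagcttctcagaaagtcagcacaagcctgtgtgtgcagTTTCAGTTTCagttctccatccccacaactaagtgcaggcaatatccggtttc
Gbp2: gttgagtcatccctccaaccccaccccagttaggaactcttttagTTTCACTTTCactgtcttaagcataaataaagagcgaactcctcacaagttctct
All 3 hold the element in reverse, as TTTC, 2 bases and TTTC.

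The 8 GTPases of the guanylate-binding and immunity-related families, which attack the vacuoles of intracellular microbes, had the highest median of any role, 0.87. All 8 were higher, between 0.64 and 1.12, yet only 1 reached p under 0.05 (12.5%, against 3.34% of all genes), and the day 7 arrays differed widely. Gbp7 measured 650.2, 311 and 290.0 at day 0, 206, 262 and 303 at day 3 and 374, 409.6 and 543 at day 7 (difference 0.75 ± 0.34, adjusted p = 0.7). Gbp2 measured 349.8, 421 and 455 at day 3 and 505, 606 and 868 at day 7, also without overlap (difference 0.64 ± 0.31, adjusted p = 0.71). Iigp1 measured 1519, 1262 and 960.5 at day 3 and 1143, 2422 and 6996 at day 7, a range at day 7 wider than the difference between days, with replicate 1 inside the day 3 range (difference 1.12 ± 0.57, adjusted p = 0.72). Gbp6 also overlapped, at 810.4, 399 and 548 at day 3 and 679, 1237 and 2209 at day 7 (difference 1.11 ± 0.56). The order of day 7 arrays, replicate 1 lowest and replicate 3 highest, was the same in these 4 genes.

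Of the 34 antiviral effectors 28 were higher, with a median of 0.17. Of the 34, 4 were higher at p under 0.05 (11.8%, against 3.34% of all genes) and 15 higher without overlap (44.1%, against 6.53%). Viperin (Rsad2), which makes a chain-terminating nucleotide, measured 982, 1031 and 1142 at day 3 and 1354, 1929 and 1788 at day 7 (difference 0.66 ± 0.22, adjusted p = 0.65), and its 2 other probe sets gave 0.43 and 0.71. Its genomic neighbour Cmpk2, a mitochondrial nucleotide kinase, measured 87.04, 100.1 and 93.4 at day 3 and 170.4, 175 and 188 at day 7, with tight groups (difference 0.82 ± 0.22, adjusted p = 0.6), but a dimmer probe set gave -0.028. Ifit1, which binds foreign RNA caps, measured 213, 229 and 234 at day 3 and 278, 342 and 424 at day 7 and Ifit3, its partner, 132, 134 and 135 at day 3 and 192, 199.8 and 223 at day 7. In both, all day 7 arrays lay above all day 3 arrays. The model's standard error, which pools the spread of all 12 heart arrays, gave 0.57 ± 0.48 and 0.56 ± 0.46 (adjusted p = 0.86 for Ifit1 and adjusted p = 0.85 for Ifit3). The day 0 intensities of Ifit3 were 802, 153 and 155.

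The 11 genes of antigen processing were all higher, with a median of 0.48, 4 of them at p under 0.05 (36.4%, against 3.34% of all genes). Beta-2-microglobulin (B2m), the light chain of MHC class I, measured 5712, 5413 and 6272 at day 3 and 6192, 8386 and 9126 at day 7, with day 7 replicate 1 inside the day 3 range (difference 0.43 ± 0.17, adjusted p = 0.68). Nlrc5, the transcriptional activator of MHC class I genes, measured 52.6, 52.5 and 53.8 at day 3 and 59.97, 76.3 and 149 at day 7 (difference 0.61 ± 0.25). The peptide transporter Tap1 measured 115, 107 and 122 at day 3 and 126, 191 and 285 at day 7 (difference 0.66 ± 0.28), although its 3 other probe sets gave -0.10 to -0.012. The 11 sensors and transcription factors had a median of 0.10, with 10 higher and none at p under 0.05. The helicase sensor Ifih1 measured 235, 248 and 246 at day 3 and 332, 307 and 336 at day 7 (difference 0.40 ± 0.22) and the factor Irf7 99.9, 107 and 87.3 at day 3 and 108, 129.9 and 198 at day 7 (difference 0.47 ± 0.30). Among the 6 genes of ubiquitin-like modification the protease Usp18 measured 60.5, 68.3 and 70.8 at day 3 and 95.3, 89.6 and 110.2 at day 7 (difference 0.47 ± 0.35).

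**Figure D3:**
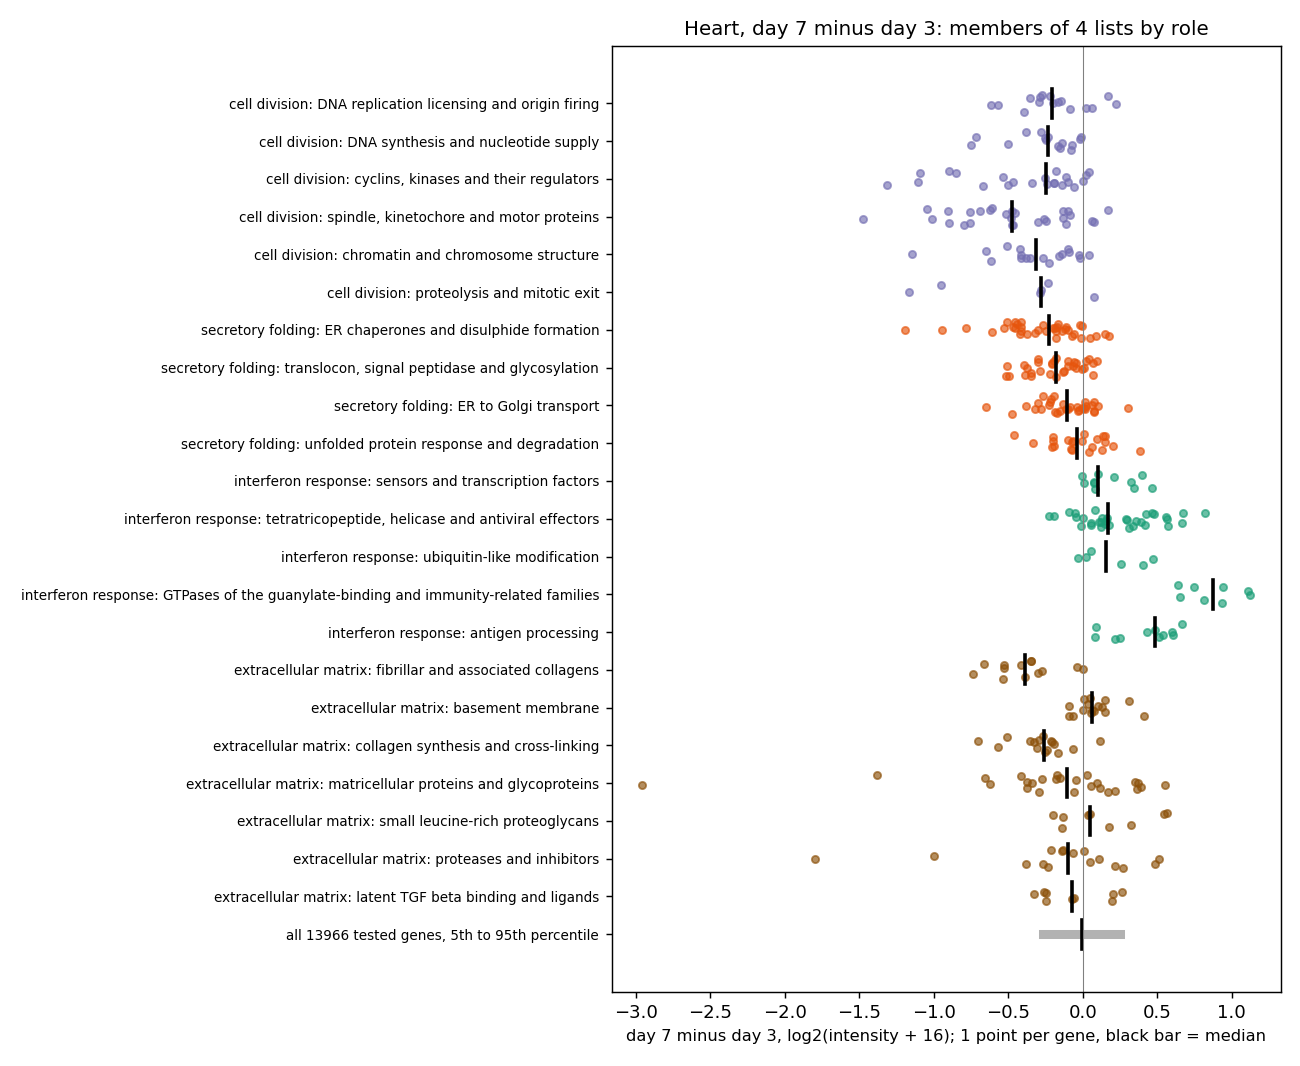
Day 7 minus day 3 in heart, log2(intensity + 16), for every tested member of 4 lists by role, 1 point per gene with a black bar at the median, above a grey bar for the 5th to 95th percentile of all 13966 tested genes (-0.26 to 0.25). Spindle genes had a median of -0.47, guanylate-binding and immunity-related GTPases 0.87, and collagen synthesis genes -0.26.

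The extracellular matrix list moved less as a whole and was split by role. Of 105 tested members 63 were lower and 42 higher, with a median of -0.13. At p under 0.05 there were 10 lower (9.52%, against 3.72% of all genes) and 9 higher (8.57%, against 3.34%). The groups did not overlap in 8 lower members (7.62%, against 7.23% of all genes) and 5 higher (4.76%, against 6.53%). The list stood above day 0 at both times. On single arrays its median was 0.10, 0.40 and 0.82 at day 3 and 0.30, 0.46 and 0.34 at day 7. The day 7 arrays lay between day 3 replicate 1 and replicate 3, so the groups overlapped. Without day 3 replicate 1 the median difference was -0.30, and without day 3 replicate 3 it was 0.07, so the sign of this list rested on single arrays.

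Of the 13 fibrillar and associated collagens 12 were lower, with a median of -0.39 (-0.67 without day 3 replicate 1). Of the 13, 3 were lower at p under 0.05 (23.1%, against 3.72% of all genes), and the groups overlapped in all. Col1a1, the alpha 1 chain of type I collagen, measured 318, 278 and 419.6 at day 0, 723, 1273 and 1720.3 at day 3 and 655, 892 and 569 at day 7. The first day 3 replicate fell within the day 7 range, and all 6 later arrays stood above day 0 (difference -0.74 ± 0.27, adjusted p = 0.66; without day 3 replicate 1 -1.08, limma adjusted p = 0.061). Col3a1, of type III collagen, measured 6090.1, 8105 and 10913 at day 3 and 6605, 6083 and 5619.8 at day 7 (difference -0.42 ± 0.25). Col5a1, which nucleates fibrils, measured 589.7, 868 and 1324 at day 3 and 567, 630.1 and 461 at day 7 (difference -0.67 ± 0.25) and Col6a3 of the beaded filaments 517, 854 and 1175 at day 3 and 605, 576 and 487 at day 7 (difference -0.53 ± 0.24; without day 3 replicate 1 -0.84). In these genes the order of day 3 arrays was the same, with replicate 1 lowest and replicate 3 highest.

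The 16 genes of collagen synthesis and cross-linking were lower in 15 cases, with a median of -0.26 (-0.43 without day 3 replicate 1). Pcolce, which enhances removal of the collagen propeptide, measured 1389, 1785 and 2063 at day 3 and 1202, 1377 and 1064 at day 7, without overlap (difference -0.51 ± 0.17, adjusted p = 0.65), and the lysyl hydroxylase Plod3 302, 348 and 403 at day 3 and 257, 302 and 280.5 at day 7 (difference -0.30 ± 0.12). The 16 basement membrane genes went the other way, with 13 higher and a median of 0.06. Nidogen 1 (Nid1), which links laminin to collagen IV, measured 759.5, 919 and 1082 at day 3 and 1042, 1302 and 1072 at day 7 (difference 0.31 ± 0.13; without day 3 replicate 1 0.18) with 2 other probe sets at 0.002 and 0.021. The median of the basement membrane genes was -0.06 without day 3 replicate 1, with 10 of the 16 lower, so their direction turned.

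Among 26 matricellular proteins and glycoproteins, 15 lower and 11 higher, Tnc lay at the bottom. Periostin (Postn), secreted by activated fibroblasts, measured 627, 571 and 1509 at day 0, 2349, 4729 and 5545 at day 3 and 1901, 3627 and 2255 at day 7. The groups overlapped and all 6 arrays were above day 0 (difference -0.66 ± 0.41, adjusted p = 0.8; without day 3 replicate 1 -1.03). Cthrc1, another product of activated fibroblasts, measured 91.7, 383 and 625 at day 3 and 35.2, 222 and 112 at day 7 (difference -1.38 ± 0.66; without day 3 replicate 1 -2.12). The microfibril protein Emilin1 was lower at 130.4, 230.2 and 330.4 at day 3 and 114, 156 and 138 at day 7 (difference -0.62 ± 0.25; without day 3 replicate 1 -0.95), and tenascin X (Tnxb), a glycoprotein of quiescent connective tissue, was higher at 211, 206 and 285 at day 3 and 308, 317 and 303 at day 7 (difference 0.39 ± 0.17). Among 9 small leucine-rich proteoglycans, which regulate fibril diameter, osteomodulin (Omd) measured 36.4, 44.2 and 56.7 at day 3 and 58.2, 77.5 and 91.1 at day 7, without overlap (difference 0.56 ± 0.16, adjusted p = 0.63). Among 16 proteases and inhibitors 2 were lower (12.5%, against 3.72% of all genes) and 3 higher (18.8%, against 3.34%) at p under 0.05. Adam12, a disintegrin metalloprotease, measured 65.4, 101 and 157 at day 3 and 46.8, 41.4 and 41.6 at day 7 (difference -0.998 ± 0.33), with a dimmer probe set at -0.18. The gelatinase Mmp2 was higher at 522, 628 and 846 at day 3 and 718, 1084 and 994 at day 7 (difference 0.48 ± 0.18) and the cardiac inhibitor Timp4 at 1508, 900.2 and 1343 at day 3 and 1699.7, 1696 and 1854 at day 7 (difference 0.51 ± 0.18), in contrast to Timp1 above. The latent TGF beta binding protein Ltbp4 measured 137, 146 and 173 at day 3 and 174, 203 and 179 at day 7 (difference 0.26 ± 0.11), and the ligand Tgfb2 overlapped at 113, 195 and 243 at day 3 and 131, 174 and 135 at day 7 (difference -0.25 ± 0.26; without day 3 replicate 1 -0.53).

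The fetal and stress genes of the cardiomyocyte went in both directions, from -1.32 in Nmrk2 to 0.65 in Myh7. Of 24 tested members 14 were lower and 10 higher, with a median of -0.05. Of the 24, 2 were lower at p under 0.05 (8.33%, against 3.72% of all genes) and 4 lower without overlap (16.7%, against 7.23%). Without day 3 replicate 1 the median was -0.16 with 18 lower, and without day 3 replicate 3 it was 0.04, so its sign rested on single arrays. The ankyrin repeat protein Ankrd1 measured 2459.8, 2847 and 2479 at day 0, 5561, 6659 and 6762 at day 3 and 5786, 6429.6 and 6790.0 at day 7, with complete overlap of the later groups (difference 0.0042 ± 0.12; without day 3 replicate 1 -0.086). Natriuretic peptide B (Nppb) measured 6755, 6917 and 9324 at day 3 and 7271, 9338 and 7517 at day 7 (difference 0.076 ± 0.20; without day 3 replicate 1 -0.0071), natriuretic peptide A (Nppa) 10399, 14957 and 14942 at day 3 and 14819, 15771 and 15738 at day 7 (difference 0.22 ± 0.14; without day 3 replicate 1 0.046) and skeletal actin (Acta1) 5437, 5779 and 6417 at day 3 and 7326, 6227 and 6472 at day 7 (difference 0.18 ± 0.20). None of these 4 reached p under 0.05, and in each the groups overlapped.

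Myh7, the fetal and slow myosin heavy chain, measured 353, 540.1 and 578 at day 0, 5066, 2193 and 1940.1 at day 3 and 4094, 3424 and 5933 at day 7. Here day 3 replicate 1 was the highest of its group and inside the day 7 range, the reverse of its place in the growth genes (difference 0.65 ± 0.31, adjusted p = 0.71; without it 1.08, limma adjusted p = 0.064). The tubulin Tubb6 was lower, at 542, 672 and 750.5 at day 3 and 400.2, 342 and 318 at day 7 (difference -0.85 ± 0.29), with a second probe set at 0.046. Of 26 adult contraction and excitability genes 19 were higher with a median of 0.06 (-0.0006 without day 3 replicate 3). The ryanodine receptor Ryr2, the calcium release channel, measured 2612, 2482 and 2502 at day 3 and 3319.6, 3069 and 2898 at day 7 (difference 0.29 ± 0.11, adjusted p = 0.68), with a dimmer probe set at 0.045. Titin (Ttn) measured 8713, 8487 and 7450.5 at day 3 and 10453, 9432 and 8908 at day 7 (difference 0.22 ± 0.11). Of 44 oxidative phosphorylation genes 37 were higher, by a median of 0.05 and none at p under 0.05. The 33 fatty acid oxidation genes had a median of 0.04, with 1 lower at p under 0.05 (3.03%, against 3.72% of all genes). The type 1 angiotensin receptor Agtr1a measured 317, 311 and 279 at day 3 and 343, 287 and 347 at day 7 (difference 0.10 ± 0.18), with overlapping groups.

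Among 27 immediate early genes, transcription factors and feedback regulators switched on within minutes of a stimulus, 18 were lower, with a median of -0.16. In each direction 3 reached p under 0.05 (11.1%, against 3.72% of all genes lower and 3.34% higher). Egr2 measured 51.7, 55.7 and 137 at day 3 and 24.5, 30.4 and 26.5 at day 7 (difference -1.07 ± 0.37), with another probe set at -1.14, and the survival factor Ier3 1217, 1703 and 1550.2 at day 3 and 995, 926 and 1051 at day 7 (difference -0.57 ± 0.24). The phosphatase Dusp1, which inactivates MAP kinases, was higher, at 1438, 1056 and 1289 at day 3 and 1758, 1765 and 2069.6 at day 7 (difference 0.57 ± 0.14, adjusted p = 0.6), as was the endothelial factor Klf2, at 321, 310.1 and 325 at day 3 and 409, 425 and 464 at day 7 (difference 0.42 ± 0.11, adjusted p = 0.6). Both had groups without overlap. Dusp1 is also one of 21 glucocorticoid-responsive genes, which had a median of 0.14 and 4 higher at p under 0.05 (19.0%, against 3.34%). The kinase Sgk1, which regulates sodium channels, measured 1455, 844 and 949 at day 3 and 1511, 1548 and 1755 at day 7 (difference 0.60 ± 0.16, adjusted p = 0.6; without day 3 replicate 1 0.83, limma adjusted p = 0.007). For Sgk1 day 3 replicate 1 was near the day 7 arrays and the other day 3 arrays were lower. Ddit4, an inhibitor of mTOR signalling, measured 558, 359 and 407 at day 3 and 465, 921 and 931 at day 7 (difference 0.74 ± 0.32). Of 18 clock genes 14 were higher, with a median of 0.17 and 2 higher at p under 0.05 (11.1%, against 3.34%). The hour of tissue collection is not in the labels, and its part in these values was not tested. Of 20 genes of cholesterol synthesis 14 were lower. At p under 0.05, 4 of the 20 were lower (20.0%, against 3.72%) and 1 was higher (5.0%, against 3.34%). The lower genes included Pmvk, at 137, 142 and 149 at day 3 and 105, 102 and 106 at day 7 (difference -0.40 ± 0.13). The 23 cytosolic heat shock genes had a median of -0.10 with none at p under 0.05, and 6 were lower without overlap (26.1%, against 7.23% of all genes). Without day 3 replicate 1 the medians were -0.06 for the immediate early, 0.24 for the glucocorticoid-responsive and -0.16 for the heat shock genes, and the glucocorticoid-responsive median was 0.02 without day 3 replicate 2.

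Of 30 chemokines and cytokines 21 were lower, with a median of -0.08. An unadjusted p under 0.05 was reached by 3 lower members (against 3.72% of all genes) and 2 higher (6.67%, against 3.34%). The groups did not overlap in 7 lower members (23.3%, against 7.23% of all genes) and 2 higher (6.67%, against 6.53%). The monocyte attractants Ccl2 and Ccl7 measured 208, 127 and 173 at day 3 and 76.8, 72.6 and 71.3 at day 7 and 139, 107 and 122 at day 3 and 69.1, 63.5 and 66.2 at day 7, in that order. Every day 7 array of both lay below every day 3 array, and the highest day 3 array was replicate 1 (differences -1.03 ± 0.40 and -0.75 ± 0.31). Of 28 monocyte and macrophage markers 21 were lower, with a median of -0.13 and 2 lower at p under 0.05 (7.14%, against 3.72%). The sign of this median turned to 0.05 without day 3 replicate 3 and likewise without day 7 replicate 1, and it was -0.27 without day 7 replicate 2. The lysosomal protein Cd68 measured 322, 455 and 670.2 at day 3 and 182, 299.6 and 268 at day 7 (difference -0.87 ± 0.29) and the lipid receptor Trem2 124, 162 and 229 at day 3 and 78.8, 100.3 and 98.3 at day 7 (difference -0.76 ± 0.24), with a dimmer probe set of Trem2 at 0.16. The list's median above day 0 was 0.22, 0.39 and 0.85 at day 3 and 0.03, 0.61 and 0.49 at day 7, overlapping groups. The T and NK cell list had a median of 0.06 (12 genes), B cells -0.12 (6 genes), neutrophils -0.13 (12 genes) and MHC class II 0.06 (9 genes). The B cell median was 0.0022 without day 7 replicate 1 and the MHC class II median -0.02 without day 7 replicate 3.

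Markers of other cell types differed beside the growth and matrix genes. Of 15 fibroblast markers 9 were lower and 6 higher, with a median of -0.28 (-0.50 without day 3 replicate 1 and -0.04 without day 3 replicate 3). Array medians were -0.13, 0.24 and 0.70 at day 3 and 0.05, 0.20 and 0.09 at day 7. Only 1 marker was lower at p under 0.05 (6.67%, against 3.72% of all genes) and 3 were higher (20.0%, against 3.34%). Without overlap, 0 were lower (against 7.23%) and 2 higher (13.3%, against 6.53%). Thy1, a surface protein of activated fibroblasts and T cells, measured 149, 273 and 345 at day 3 and 141, 171 and 139 at day 7 (difference -0.64 ± 0.23; without day 3 replicate 1 -0.96, limma adjusted p = 0.024). In contrast Pi16, a marker of resting adventitial fibroblasts, was higher, at 348, 414 and 604 at day 3 and 629.8, 741 and 573 at day 7 (difference 0.52 ± 0.18), with a dimmer probe set at -0.13. The order of day 3 arrays, replicate 1 lowest and replicate 3 highest, was shared by the fibroblast, macrophage, matrix and cell division lists. It was also that of the secretory folding, interferon, cardiac stress, cholesterol synthesis, endothelial, smooth muscle and adipocyte lists. The order was thus not particular to any of these lists, and the part of any cell type in those results was not tested. Of 22 endothelial markers 17 were higher, with a median of 0.14 (0.06 without day 3 replicate 1 and 0.26 without day 3 replicate 3). Of the 22, 3 were higher at p under 0.05 (13.6%, against 3.34% of all genes). The VEGF receptor Kdr measured 415, 467 and 574 at day 3 and 639, 715 and 556 at day 7 (difference 0.39 ± 0.14) and the angiopoietin receptor Tek 279, 395 and 411 at day 3 and 449, 451 and 441 at day 7 (difference 0.31 ± 0.14; without day 3 replicate 1 0.14). Of 15 smooth muscle and pericyte markers 9 were higher and 6 lower, from -0.28 to 0.56. Only 2 were higher at p under 0.05 (13.3%, against 3.34% of all genes) and none lower. The light chain kinase Mylk measured 252, 309 and 359 at day 3 and 435, 389 and 429 at day 7 (difference 0.44 ± 0.13, limma adjusted p = 0.63). The smooth muscle myosin Myh11 measured 176, 204 and 249 at day 3 and 386, 245 and 327 at day 7 (difference 0.56 ± 0.19). The list's median was 0.12. The adipocyte (10 genes), red cell (3 genes) and skeletal muscle (7 genes) lists had medians of 0.08 (-0.02 without day 7 replicate 3), 0.16 and -0.01.

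The atrial list had 9 of 10 members higher, with a median of 0.26 that became -0.12 without day 3 replicate 1, where 6 of the 10 were lower. Sln gave 1.46 ± 0.83 with all arrays and 0.069 without that array, and Myl4 0.99 ± 0.70 and -0.21. Dkk3, an atrial secreted Wnt pathway protein, was among the 15 largest differences upward, at 111, 383 and 389 at day 3 and 464, 447 and 531 at day 7 (difference 0.85 ± 0.36), and gave 0.30 without the array. The sign of the atrial median thus rested on a single array, although Dkk3 stayed higher without it. The cell division, secretory and collagen medians were larger in size without that array, which was singled out partly by its levels in the gene lists. Its part in those differences was not tested.

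**Figure D4:**
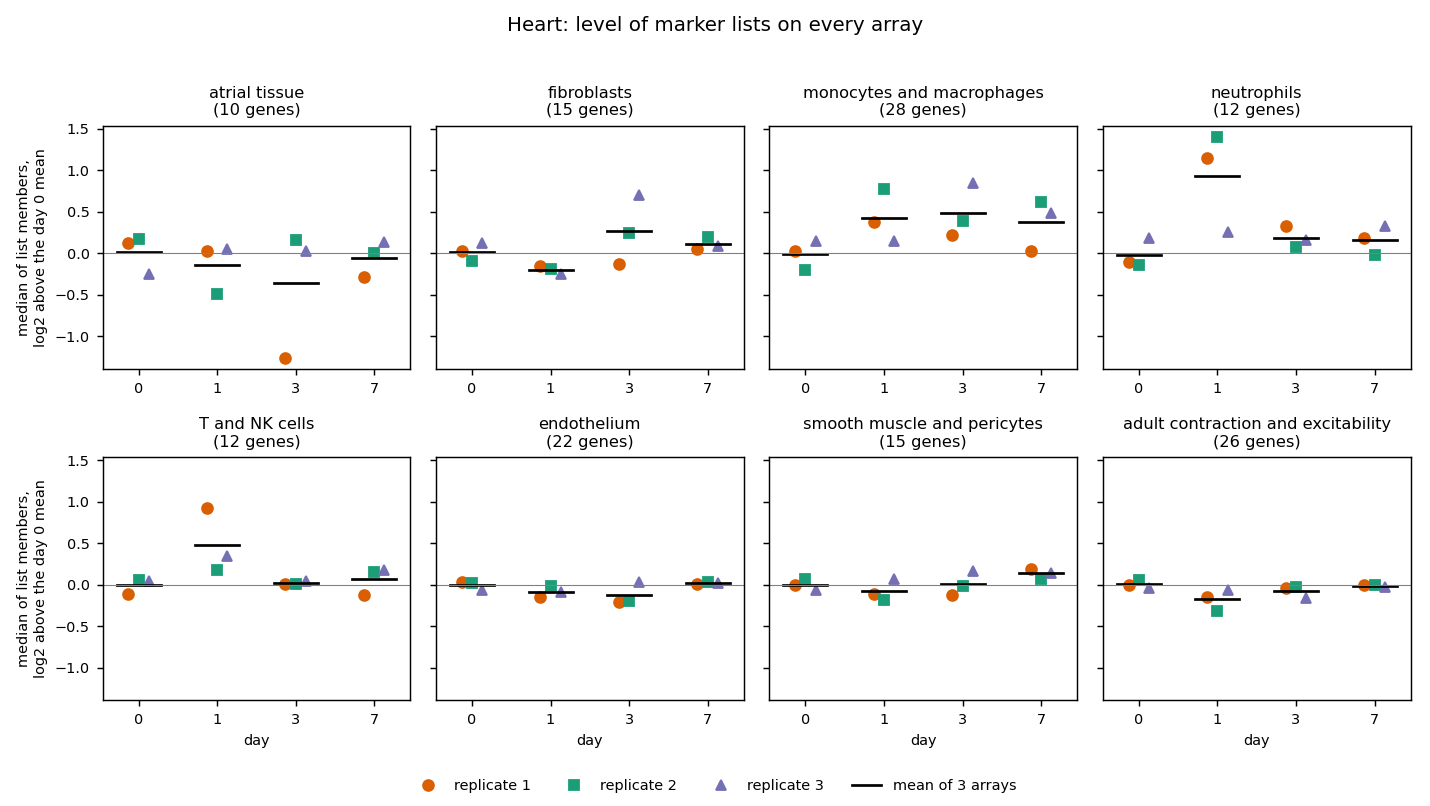
Median of the members of 8 marker lists on each heart array, log2(intensity + 16) above the day 0 mean, by day, with points for replicates and a black bar for the mean of 3 arrays. Day 3 replicate 1 lay at -1.26 in the atrial list, and the fibroblast list spread from -0.13 to 0.70 over the day 3 arrays and from 0.05 to 0.20 at day 7.

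The same interval was measured in kidney and brain, with 2 arrays a day, and in vessel, with 1 array a day and therefore no test. The cell division list had a median difference of 0.05 in kidney, -0.02 in brain and 0.32 in vessel, beside -0.27 in heart. The secretory folding list gave 0.01, 0.02 and 0.19, beside -0.15. The interferon list gave 0.30 in kidney, the same as in heart, 0.04 in brain and -0.80 in vessel. The matrix list gave medians between -0.0002 and 0.14, beside -0.13. These list medians are descriptions, and their differences between tissues were not tested as lists. The mitotic gene Plk1 gave a difference of differences, heart minus kidney, of -0.62 ± 0.14, the net of -0.47 in heart and 0.16 in kidney. Its limma adjusted p was 1, and no gene of 14657 passed the threshold (0% called, 715 at an unadjusted p under 0.05). Heart minus brain passed for 3 of 14954 genes (0.0201%). One was the replication gene Mcm3, at -0.88 ± 0.15 (limma adjusted p = 0.041), the net of -0.35 in heart and 0.53 in brain. With the replicate number as a block 0 genes passed (497 at an unadjusted p under 0.05), and Mcm3 passed in 6 of 18 alternatives.

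**Figure D5:**
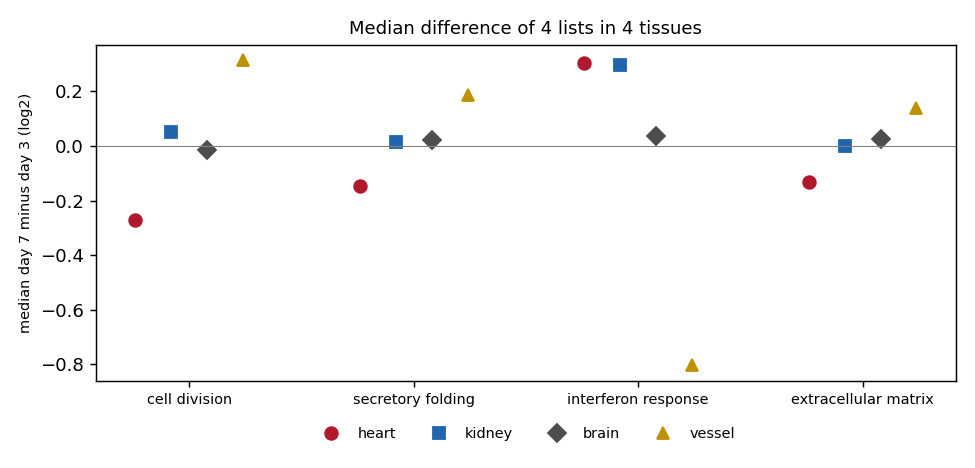
Median day 7 minus day 3 difference (log2) of 4 gene lists in heart, kidney, brain and vessel, 1 symbol per tissue. Cell division was -0.27 in heart and 0.32 in the single pair of vessel arrays, and the interferon list was 0.30 in both heart and kidney and -0.80 in vessel.

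Without day 3 replicate 1 the 65 genes past limma's adjusted threshold were led in size by Tnc and Sprr1a, then by cell division genes. The 6 secretory members were Sdf2l1, Pdia6, P4hb, Pdia5, Serpinh1 and Kdelr3, of which Pdia5, Serpinh1 and Kdelr3 were chosen for naming after their values were seen. Serpinh1, the collagen-specific chaperone, measured 1411, 2495 and 2442 at day 3 and 1434, 1173 and 992 at day 7 (difference with all arrays -0.78 ± 0.21; without day 3 replicate 1 -1.05, limma adjusted p = 0.022). Kdelr3, a receptor that returns ER proteins from the Golgi, measured 169, 345 and 482 at day 3 and 182, 209 and 177 at day 7 (difference -0.65 ± 0.28; without that array -1.05, limma adjusted p = 0.032). In both, day 3 replicate 1 lay below the highest day 7 array. The matrix members were Tnc, Col12a1 and Loxl3. The 3 higher genes were Sgk1 and the noncoding RNAs Neat1 and Firre, also chosen after their values were seen. Neat1, the scaffold of nuclear paraspeckles, measured 1881, 958 and 1105 at day 3 and 2013, 1517 and 1690.3 at day 7 (difference with all arrays 0.45 ± 0.20, adjusted p = 0.7, overlapping groups; without day 3 replicate 1 0.74, limma adjusted p = 0.049). With 2 arrays left at day 3, the calls rest on the spread of the remaining heart arrays. They are descriptions, since the array left out was singled out partly by its levels in the gene lists.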

How the data were processed

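Total RNA from 30 mouse tissue samples, 12 of them hearts, had been hybridised to Affymetrix Mouse Genome 430 2.0 arrays. The authors deposited 1 intensity per probe set and array on a linear scale. Per the submitters' processing notes, the tool was Affymetrix Expression Console. Neither its version nor its summary algorithm is given in the sources used here, and heart medians of 36.0 to 37.7 show arrays already scaled to each other. Of 45101 probe sets, 64 controls were left out, 34945 had 1 gene symbol, 932 several and 9160 none, from GEO's platform annotation. The probe set brightest on average over the 30 arrays stood for each of 18193 genes. Values were taken as log2(intensity + 16). Genes above the array's 40th percentile on at least 3 heart arrays were tested, 13966 in all.

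limma 3.58.1 (R 4.3.3) fitted 4 group means to the 12 heart arrays (lmFit, eBayes), with Benjamini-Hochberg adjustment at 0.05, and a joint fit of 26 heart, kidney and brain arrays in 11 groups gave differences between tissues. The script was tested on simulated data. Tables and figures used Python 3.11.15, pandas 2.3.3, numpy 2.4.6 and matplotlib 3.10.9. The number of arrays limits the precision. Same-numbered arrays of days 3 and 7 were not treated as pairs (correlations of deviations 0.047 to 0.056).

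The comparison and the 26 gene lists (936 members, 873 on the array) were chosen with earlier results of these data known. Named genes were the 15 largest differences in each direction at p under 0.05 without overlap, up to 6 members per list (4 per role in the 4 main lists) with the smallest p, fixed names, and the genes that led the tissue differences. Exceptions are marked. Some of the fixed names are not reported here. Promoter windows came from RefSeq (GRCm38.p6). Alternatives are given at the end.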

Additional observations from a re-analysis of the deposited data

Results flagged for a closer look

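Between heart and brain, 3 of 14954 genes had a day 7 minus day 3 difference that was itself unequal (limma, Benjamini-Hochberg adjusted p under 0.05). Calcr, the calcitonin receptor, had a difference of differences of -0.72 (adjusted p = 0.0028), from -0.03 in heart and 0.69 in brain. Npas4, a neuronal activity-dependent transcription factor, gave -1.22 (adjusted p = 0.041), from -0.11 in heart and 1.12 in brain. Mcm3, of the replicative helicase, gave -0.88 (adjusted p = 0.041), from -0.35 in heart and 0.53 in brain. In Calcr and Npas4 the difference lay in brain. Calcr passed in 16 of 18 alternatives, and Mcm3 and Npas4 each in 6 of 18.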

How the results depend on the processing

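For heart day 7 against day 3, 0 genes passed the adjusted threshold with all arrays and with no filter, another added value (1 or 64), renewed quantile normalization, the mean of all probe sets, trended and robust variances, or the replicate block (0 genes, 847 at an unadjusted p under 0.05). Only the 6 arrays compared gave 1 gene (Gadd45g), and the joint fit of 3 tissues gave 2 (Pdia6, adjusted p = 0.0045, and Sdf2l1, 0.027). Leaving out 1 array gave 0 to 65 genes, with 65 without day 3 replicate 1, 4 without day 7 replicate 1 (Pdia6, Sdf2l1, Depp1 and 1810014B01Rik) and 3 without day 1 replicate 2. Deviations of same-numbered arrays of days 3 and 7 correlated at 0.047 to 0.056, and those of other pairs at -0.096 to 0.045, all small. Heart minus kidney gave 0 genes and 0 to 88 with 1 array left out (30 without heart day 3 replicate 1, 2 without heart day 7 replicate 1, 88 without kidney day 3 replicate 1). Heart minus brain gave 3, then 7 with 64 added, 1 after renewed quantile normalization, 0 with the replicate block, 0 from the day 3 and day 7 arrays alone, and 1 to 25 with 1 array left out (25 without heart day 3 replicate 1, 17 without brain day 3 replicate 1, 7 without brain day 3 replicate 2). List medians kept their sign for cell division (-0.40 to -0.20), secretory folding (-0.25 to -0.05) and interferon (0.20 to 0.37) under the alternatives run. The matrix list ranged from -0.30 to 0.07 and the atrial list from -0.12 to 0.41 over single left-out arrays, and the sign also turned for macrophages (-0.27 to 0.05), cardiac stress (-0.16 to 0.04), adult contraction (-0.0006 to 0.08), B cells (-0.17 to 0.0022), MHC class II (-0.02 to 0.15) and adipocytes (-0.02 to 0.13). Of 2833 gene values under alternatives 8 had the opposite sign, in 3 genes: Ankrd1 (-0.012 after quantile normalization, -0.070 with all probe sets, -0.086 to 0.068 with 1 array left out), Nppb (-0.036 to 0.23) and Myl4 (-0.21 to 1.64). The causes were not tested.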

Other observations

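A few genes among the largest differences upward lie outside the lists. Tnfsf10, the death ligand TRAIL, measured 66.2, 85.1 and 56.9 at day 3 and 88.3, 135 and 129 at day 7 (difference 0.64 ± 0.19, limma adjusted p = 0.65), with 2 other probe sets at 0.14 and 0.22. The MHC class I gene H2-Q5, whose probes may read related class I genes, measured 23.8, 19.8 and 21.6 at day 3 and 34.8, 41.3 and 50.3 at day 7 (difference 0.62 ± 0.19). The transcription factor Sox4 measured 255, 477 and 466 at day 3 and 496, 658 and 707 at day 7 (difference 0.65 ± 0.24; without day 3 replicate 1 0.37), and its 7 other probe sets gave -0.062 to 0.25. The predicted genes Gm19277 and Gm9222 gave 1.09 ± 0.33 and 0.64 ± 0.15. In all 5 the groups did not overlap.

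Each group held 3 arrays, and day 3 held the array that stood apart. The cause of its difference was not tested. Probe sets of one gene disagreed for several named genes, Tnc, Pdia6, Cmpk2 and Tap1 among them. Dim genes are compressed by the added 16.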
